A study of Homo sapiens with 2 samples.

Results

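Among the genes of mitosis, 47 that encode the anaphase-promoting complex, the spindle, the kinetochore, condensin and their regulators were chosen by name, out of 20056 protein-coding genes of GRCh38.p14. Each was compared with the regions that an anti-Flag CUT & Tag experiment listed as peaks in TFK-1, a human cell line of extrahepatic cholangiocarcinoma. CUT & Tag uses an antibody to bring a transposase to a protein on DNA, so that the DNA nearby is cut and sequenced. The LV-HOXA5 cells carried a lentiviral Flag-HOXA5 transgene and the LV-HOXA5-NC cells the matching control lentivirus, and stable lines were established with puromycin. Each condition had 1 library, so no difference between them has a replicate check, and binding of an overexpressed, tagged protein was measured rather than that of the cells' own HOXA5. The LV-HOXA5 library held 15778555 fragments and 8043 peaks. The LV-HOXA5-NC library held 1948734 fragments, 12.4% of the former, and 635 peaks. Peak lists hold no expression values, so the cell type was not checked against markers.

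Mitosis divides the replicated chromosomes between daughter cells. Condensin compacts the chromosomes, kinetochores join them to spindle microtubules, and the spindle checkpoint holds back the anaphase-promoting complex (APC/C) until every chromosome is attached. The APC/C is a ubiquitin ligase that then marks securin and the mitotic cyclins for destruction, which frees separase to part the sister chromatids. Many mitotic genes are transcribed late in the cell cycle through promoter elements known as the CHR and the CCAAT box, the latter bound by NF-Y. The study asked where in the genome HOXA5 lies in these cells, and the comparison here asks at which mitotic genes a peak was listed.

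In the LV-HOXA5 list, 14 of the 47 mitotic genes (29.8%, exact 95% interval 17.3% to 44.9%) had a peak no more than 1 kb from a gene end. Among the 20009 other protein-coding genes, the share was 13.0%. With peaks within 3 kb of an end or anywhere inside the gene counted, 16 of the 47 genes (34.0%, interval 20.9% to 49.3%) had a peak, against 20.7% of the others. The wider class added ANAPC5 and CENPF, and 31 genes had no peak under either definition. For those 31 the nearest LV-HOXA5 peak lay at a median of 178 kb from the gene. The members were chosen with earlier results of these data known, so the shares are set side by side without a test. The intervals cover counting error only, and genes are not independent replicates.

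**Figure D1:**
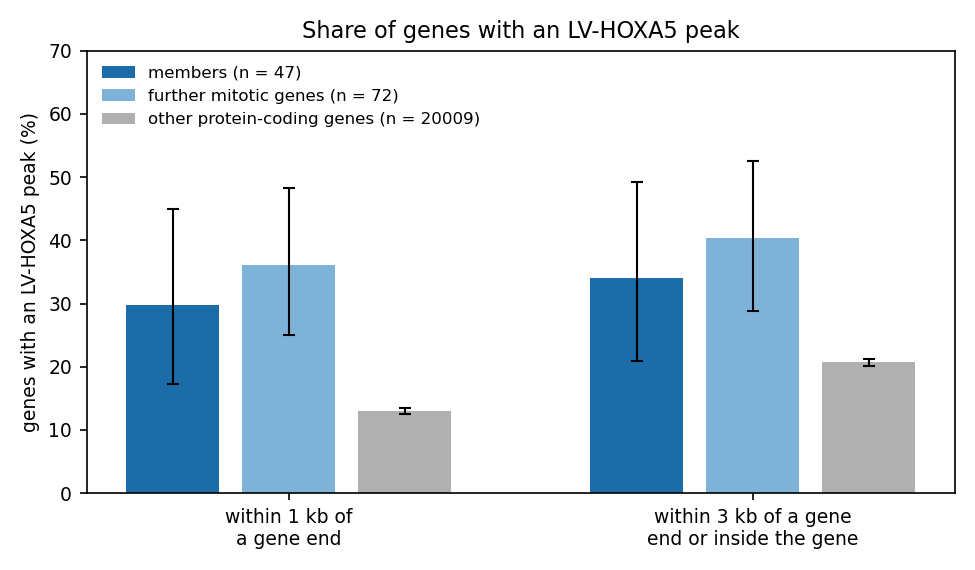
Percentage of genes with an LV-HOXA5 peak under each definition of distance, for the 47 mitotic genes (members), for 72 further mitotic genes and for the 20009 other protein-coding genes, which include those 72. Bars start at 0 and error bars are exact 95% binomial intervals; the mitotic genes stand at 29.8% and 34.0% and the other protein-coding genes at 13.0% and 20.7%.

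In the LV-HOXA5-NC list, 0 of the 47 genes had a peak in either class of distance (upper bound of the exact 95% interval 7.55%). Such peaks were rare at other protein-coding genes too, at 0.135% within 1 kb and 0.715% within 3 kb or inside. The control peak closest to an end of a mitotic gene lay 301 kb away, from GTSE1. None of the 16 mitotic genes with an LV-HOXA5 peak therefore had a control peak to compare it with. At the depth of the control library, the pileups of the 14 peaks within 1 kb, which are the numbers of fragments over the summit, would correspond to 1.48 to 3.58 fragments. The lowest pileup of any LV-HOXA5-NC peak was 4 fragments. Of 1602 LV-HOXA5 peaks at other protein-coding gene ends with pileups in the same range of 12 to 29 fragments, 2 overlapped a control peak. Above that range, 13 of 247 did (5.26%). Whether these regions carried less signal in control cells cannot be told apart from the lower depth of the control library.

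Sequence before the gene start was available for 40 of the 47 genes from RefSeq (GRCh38.p14), and 10 of these had a peak within 1 kb. The 250 bases up to the start are given for the 8 strongest of them by fold enrichment, since the peak of each overlaps this stretch and the elements of mitotic promoters can be read there. They lie at NCAPD2 chr12:6493852-6494101 (plus strand), CENPA chr2:26785806-26786055 (plus), SMC4 chr3:160399400-160399649 (plus), CDC23 chr5:138213324-138213573 (minus), CDC27 chr17:47189296-47189545 (minus), UBE2S chr19:55407789-55408038 (minus), KIF23 chr15:69414099-69414348 (plus) and MAD2L1 chr4:120066849-120067098 (minus). Each runs 5′ to 3′ on the strand of its gene. Capitals mark matches on either strand to TAAT (the core that homeodomains such as that of HOXA5 bind, ATTA on the other strand), TAATTA (a longer HOX-type site), TTTGAA or TTCGAA (the CHR, the former TTCAAA on the other strand), CCAAT (the NF-Y box, read as ATTGG on the other strand), CACGTG (the E-box of the MYC and MAX family) and GGCGGGAA (an E2F-type site, read as TTCCCGCC on the other strand). TAAT also matches within TAATTA, and neighbouring matches may share bases.
NCAPD2: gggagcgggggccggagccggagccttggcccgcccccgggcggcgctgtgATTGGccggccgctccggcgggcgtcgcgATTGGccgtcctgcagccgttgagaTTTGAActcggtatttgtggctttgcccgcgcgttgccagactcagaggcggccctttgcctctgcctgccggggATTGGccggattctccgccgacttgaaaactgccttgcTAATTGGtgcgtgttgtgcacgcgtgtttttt
CENPA: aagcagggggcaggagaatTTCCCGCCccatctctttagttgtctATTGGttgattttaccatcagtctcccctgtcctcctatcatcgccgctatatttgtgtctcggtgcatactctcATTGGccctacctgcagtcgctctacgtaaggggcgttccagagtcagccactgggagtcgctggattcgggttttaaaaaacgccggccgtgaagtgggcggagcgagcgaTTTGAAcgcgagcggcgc
SMC4: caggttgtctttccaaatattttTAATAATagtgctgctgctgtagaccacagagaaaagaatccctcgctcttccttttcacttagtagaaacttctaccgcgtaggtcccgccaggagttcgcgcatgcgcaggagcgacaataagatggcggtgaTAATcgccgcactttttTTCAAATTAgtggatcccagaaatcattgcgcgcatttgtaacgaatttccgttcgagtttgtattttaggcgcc
CDC23: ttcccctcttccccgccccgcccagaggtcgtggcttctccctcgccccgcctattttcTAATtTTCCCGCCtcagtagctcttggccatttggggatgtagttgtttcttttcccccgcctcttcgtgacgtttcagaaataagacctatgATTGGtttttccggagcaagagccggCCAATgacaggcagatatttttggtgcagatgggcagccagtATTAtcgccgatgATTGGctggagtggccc
CDC27: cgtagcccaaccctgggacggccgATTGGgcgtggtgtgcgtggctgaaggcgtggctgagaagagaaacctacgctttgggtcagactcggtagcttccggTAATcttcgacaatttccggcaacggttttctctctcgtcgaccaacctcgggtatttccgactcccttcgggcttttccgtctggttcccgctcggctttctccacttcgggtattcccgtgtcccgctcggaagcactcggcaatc
UBE2S: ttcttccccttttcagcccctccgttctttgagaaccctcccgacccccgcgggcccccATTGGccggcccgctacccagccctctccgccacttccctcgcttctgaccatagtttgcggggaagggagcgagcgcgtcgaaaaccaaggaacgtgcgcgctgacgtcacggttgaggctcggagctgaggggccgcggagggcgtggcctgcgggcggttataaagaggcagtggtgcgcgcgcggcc
KIF23: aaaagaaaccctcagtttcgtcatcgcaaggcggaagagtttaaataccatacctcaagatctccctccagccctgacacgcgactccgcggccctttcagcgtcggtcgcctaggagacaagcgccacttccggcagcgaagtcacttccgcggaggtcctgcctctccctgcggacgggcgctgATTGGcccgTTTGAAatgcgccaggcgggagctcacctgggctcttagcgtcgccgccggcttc
MAD2L1: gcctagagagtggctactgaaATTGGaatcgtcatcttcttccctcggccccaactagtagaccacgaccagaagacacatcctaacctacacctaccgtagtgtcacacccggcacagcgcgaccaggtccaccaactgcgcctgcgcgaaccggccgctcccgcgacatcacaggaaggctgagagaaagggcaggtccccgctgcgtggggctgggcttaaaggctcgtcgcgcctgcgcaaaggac

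In these 8 promoters, CCAAT matched 13 times in 7 promoters and the CHR sequence TTTGAA 4 times in 4. NCAPD2 held 4 CCAAT boxes, the most proximal from 30 to 26 bases before the start, and a TTTGAA. CDC23 held 3 CCAAT boxes and an E2F-type match. In CENPA and KIF23 a TTTGAA followed a CCAAT box, and it lay 18 to 13 bases before the start in CENPA and 55 to 50 bases before it in KIF23. TAAT matched 8 times in 4 promoters, with 4 of the matches in SMC4, 2 in CDC23 and 1 each in CDC27 and NCAPD2. All 8 TAAT matches, all 13 CCAAT matches and 3 of the 4 TTTGAA matches lay inside the peak of their gene, the exception being that of CENPA. These promoters were shown because the peak overlaps them, and the peaks covered from 136 (KIF23) to 250 (NCAPD2) of the 250 bases. That most matches lay inside a peak was therefore largely set by this choice. No TAATTA and no E-box was found.

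Across promoters, the homeodomain core was found at similar shares in mitotic genes and in all genes. TAAT was found in 4 of the 10 mitotic promoters whose gene had a peak within 1 kb of an outer end. It was found in 10 of the 30 without such a peak and in 40.0% of the 15843 protein-coding promoters of the same length. The 30 include ANAPC5, whose peak lay farther from the outer end but overlapped 72 bases of the promoter used. CCAAT was found in 8 of the 10 and in 17 of the 30, against 34.5% of all promoters and 49.3% of the promoters of other genes with a peak within 1 kb. The CHR was found in 5 of the 10 and in 12 of the 30, against 12.0% of all promoters. Both elements thus stood above their share in all promoters whether or not the mitotic gene had a peak. The E2F-type match was found in 2 of the 10 and 3 of the 30 (3.74% of all), the E-box in 0 and 4 (7.80% of all), and TAATTA in neither (3.18% of all). The promoters with and without a peak had a median of 21.0 CpG each and a GC content of 60.0% and 62.4%, and all protein-coding promoters had medians of 17.0 CpG and 62.0%. A match is a description of letters in these windows, and no site of binding was tested.

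**Figure D2:**
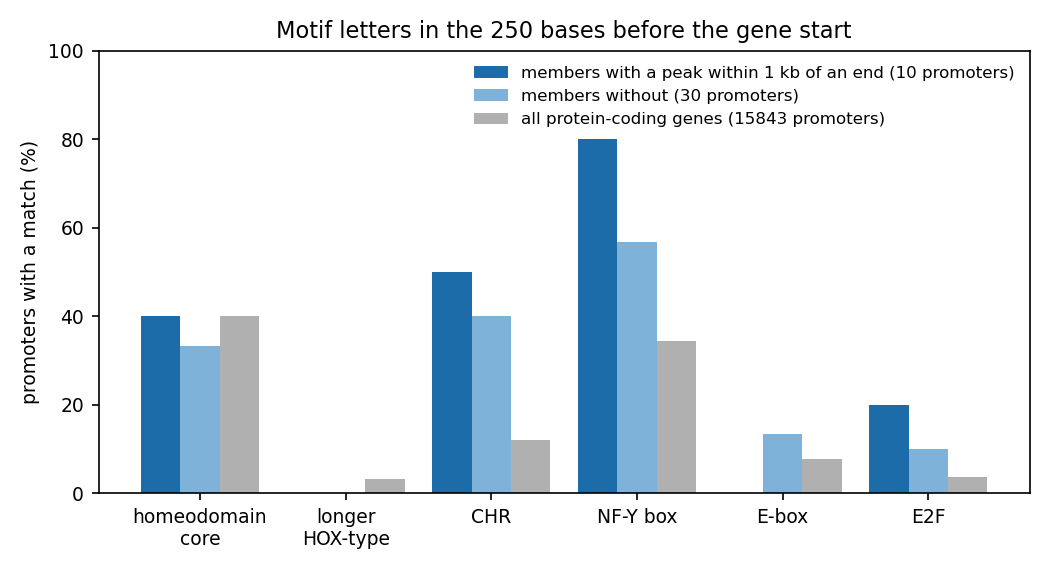
Percentage of promoters (250 bases before the gene start, both strands) that held each motif. Groups are the 10 mitotic promoters with an LV-HOXA5 peak within 1 kb, the 30 mitotic promoters without and all 15843 protein-coding promoters. The 30 include ANAPC5, whose peak lay beyond 1 kb of the outer gene end but overlapped the promoter used. The CHR and the NF-Y box stand higher in both mitotic groups than in all promoters, at 50.0% and 40.0% against 12.0% and at 80.0% and 56.7% against 34.5%, while the homeodomain core stands at 40.0%, 33.3% and 40.0%.

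By function, condensin had the largest share among member groups of 3 or more genes, with 3 of 5 members having a peak within 1 kb. The condensin genes outside the members, NCAPD3, NCAPG2 and NCAPH2 of the further list described at the end, had none within 1 kb. The APC/C core had 3 of 12, its coactivators and ubiquitin-conjugating enzymes 2 of 4, the spindle checkpoint 2 of 5, and spindle motors and microtubule proteins 2 of 6. Kinetochore and centromere genes had 1 of 7 and the mitotic kinases 1 of 2. No peak was listed at the 3 genes of the chromosomal passenger complex, at separase and securin, or at MKI67. The APC/C with its partners had 5 of 16 genes with a peak within 1 kb, and all other members 9 of 31. Among the other protein-coding genes, 13.0% had a peak within 1 kb. With so few genes in each group, a low count is no sign of a difference from that share. No group was tested against another.

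**Figure D3:**
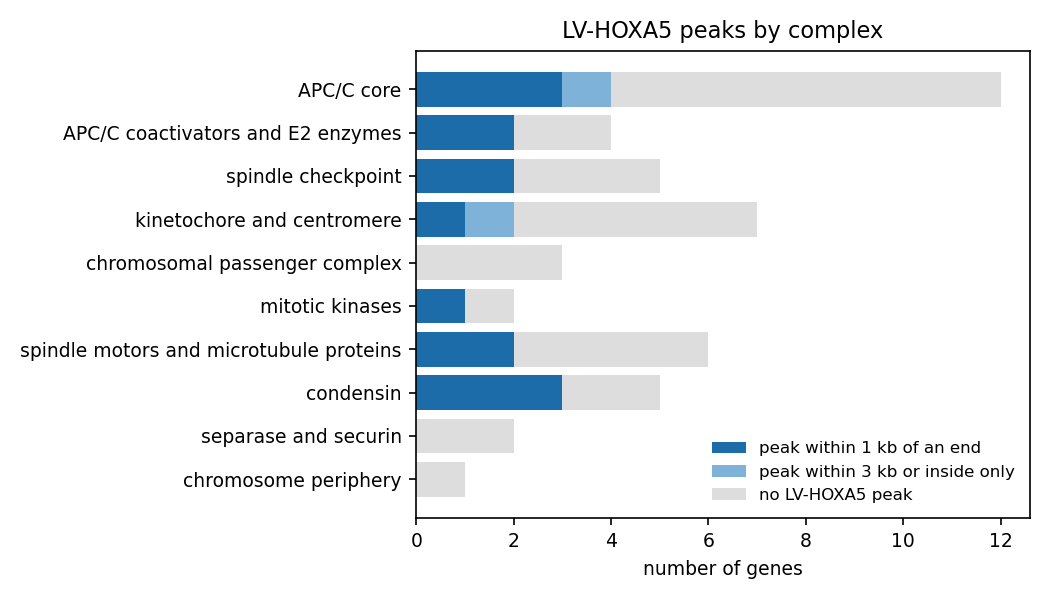
Number of mitotic genes in each functional group with an LV-HOXA5 peak 1 kb or less from an end, with one within 3 kb or inside only, or no peak; the horizontal axis counts genes. Peaks were spread over 7 of the 10 groups, with 3 of 5 condensin members and 0 of 3 chromosomal passenger members having one within 1 kb.

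Among the APC/C core subunits, CDC23 and CDC27 had peaks that covered the start of the gene. Both belong to the tetratricopeptide-repeat arm of the complex, which helps to receive coactivators. The CDC23 peak (chr5:138213117-138213694) reached 22 fragments at its summit (13.8 to 33.3 by an exact 95% Poisson interval) and a 5.84-fold enrichment over the local background. The CDC27 peak (chr17:47189180-47189541) also had 22 fragments, at 5.48-fold. ANAPC7, another subunit of that arm, had a weaker peak 60 bp before its start (chr12:110403768-110404027), with 14 fragments and 3.92-fold. Its fold enrichment was the lowest among the 14 genes and exceeded that of 14.6% of all LV-HOXA5 peaks at protein-coding gene ends.

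ANAPC5, which encodes a platform subunit, fell outside the 1 kb limit by its outer gene end, 1726 bp from the peak (chr12:121352191-121352483, 12 fragments, 4.31-fold). RefSeq also places a start of ANAPC5 at position 121352411, and the summit lay 11 bp from it. This position was looked at after the values were seen. Counting any RefSeq start in place of the outer ends, which was possible for 40 of the 47 genes, gave 11 genes (27.5%) with a peak within 1 kb, against 14.1% of the other 15803 genes with such a start. The remaining APC/C core genes, ANAPC1, ANAPC2, ANAPC4, ANAPC10, ANAPC11, ANAPC13, CDC16 and CDC26, had no peak within 3 kb or inside. Their nearest LV-HOXA5 peaks lay between 29.8 kb (ANAPC11) and 799 kb (CDC16) from a gene end.

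Both ubiquitin-conjugating enzymes of the APC/C had a peak. UBE2C starts ubiquitin chains on APC/C substrates, and its peak (chr20:45812286-45812639) ended 5 bp from the gene. The pileup of 29 fragments (interval 19.4 to 41.6) was the highest among the 14 genes, with a 5.83-fold enrichment. UBE2S extends the chains, and its peak (chr19:55407811-55408341) lay 23 bp before the start with 22 fragments and 4.99-fold. The coactivators CDC20 and FZR1, which bring substrates to the complex, had none, and the peaks nearest to them were 9.41 and 55.0 kb away.

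In the spindle checkpoint, MAD2L1 and BUB3 had peaks. MAD2L1, part of the complex that binds and restrains CDC20, had a peak over its start (chr4:120066762-120067220) with 12 fragments (interval 6.20 to 21.0) and a 4.82-fold enrichment. BUB3, which docks checkpoint kinases at the kinetochore, had one 36 bp from the closest gene end (chr10:123154110-123154366) with 14 fragments and 4.83-fold. These pileups were at the low side of the 14 genes. The checkpoint kinases BUB1 and TTK and the kinase-related BUB1B had no peak closer than 293 kb, the distance at BUB1.

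Of the 7 kinetochore and centromere members, several further kinetochore genes such as CENPO being described at the end, 1 had a peak within 1 kb. This was CENPA, the histone H3 variant that marks centromeres. That peak (chr2:26785605-26786021) ended 35 bp before the start, with 22 fragments (interval 13.8 to 33.3) and a 6.0-fold enrichment. CENPF, a large kinetochore and microtubule protein, had a peak deep inside the gene, 25928 bp from its closer end (chr1:214638394-214638643), with 9 fragments and 3.67-fold. Its −log10 q-value of 1.86 was the lowest of the 16 genes. All 4 subunits of the NDC80 complex (NDC80, NUF2, SPC24 and SPC25), which holds microtubules at the kinetochore, and CENPE, a kinetochore motor, had no peak within 3 kb or inside.

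AURKA, the kinase that matures spindle poles, had a peak 123 bp from the closest gene end (chr20:56392338-56392616) with 18 fragments (interval 10.7 to 28.4) and 4.62-fold. This was the most distant of the 14 peaks, and the nearest member outside the limit was ANAPC5. TPX2, which activates and localises AURKA, had a peak 29 bp from an end (chr20:31738891-31739261) with 14 fragments and 4.6-fold. KIF23, the kinesin of the central spindle that is needed for cytokinesis, had a peak over its start (chr15:69414213-69414891) with 19 fragments and 4.89-fold. PLK1, AURKB, INCENP, BIRC5, KIF11, PRC1, GTSE1 and FAM83D had no peak within 3 kb or inside. The closest miss was AURKB, the kinase of the chromosomal passenger complex, with a peak 3.95 kb from an end.

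Condensin showed the strongest member peak by fold enrichment. NCAPD2, a HEAT-repeat subunit of condensin I, had a peak of 956 bp over its start (chr12:6493337-6494292) with 27 fragments (interval 17.8 to 39.3) and a 6.21-fold enrichment. This exceeded the fold enrichment of 83.5% of LV-HOXA5 peaks at protein-coding gene ends. SMC4, an ATPase core subunit, had a peak 63 bp before its start (chr3:160399227-160399587) with 19 fragments and 5.86-fold. NCAPH, the kleisin that closes the condensin I ring, had one beginning 42 bp inside the gene (chr2:96335808-96336100) with 12 fragments and 4.69-fold. SMC2, the partner of SMC4, and NCAPG had their nearest peaks 1307 and 1917 kb away. Securin (PTTG1), separase (ESPL1) and MKI67, which coats mitotic chromosomes, had their nearest peaks 106, 77.6 and 156 kb away.

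The 14 peaks lay close to one gene end each. Their distances ran from 0 to 123 bp with a median of 26.0 bp, and 5 of them covered the end. At the 2598 other protein-coding genes with a peak within 1 kb, the median distance was 0 bp, 51.4% of the genes had an end covered and 75.1% had a peak within 123 bp. Strand was given for 10 of the 14 genes, and in all 10 the peak lay at the start of the gene. Among the other protein-coding genes with a strand, 95.5% had the peak at the start. For UBE2C, AURKA, BUB3 and TPX2 the strand was not used here, so their peaks are given only by the closest end.

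In 11 of the 14 the summit was 45 to 449 bp outside, with a median of 209 bp, and in CDC27, KIF23 and NCAPH it was 43, 177 and 327 bp inside. At the other protein-coding genes, 63.6% of the summits lay outside, with a median of 211 bp. At 26 further mitotic genes with such a peak, described at the end, 12 summits (46.2%) lay outside and 17 peaks (65.4%) covered a gene end, against 35.7% of the member peaks. A summit outside the gene was therefore not shared by most of those genes.

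**Figure D4:**
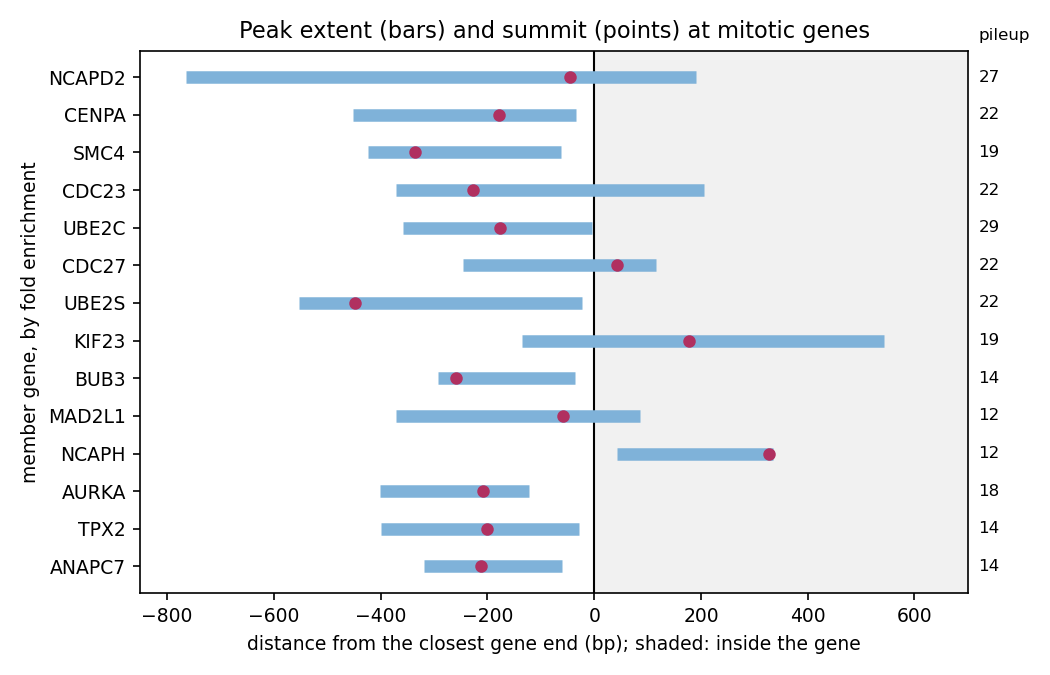
Extent (bars) and summit (points) of the LV-HOXA5 peak at each of the 14 mitotic genes with a peak within 1 kb, by distance in bp from the closest gene end, with the inside of the gene shaded and the pileup in fragments at the right. Genes are ordered by fold enrichment; 5 peaks cross the gene end, and the NCAPH peak alone lies wholly inside the gene.

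In strength, the member peaks lay within the range of other peaks at gene ends. Their median pileup was 19.0 fragments (range 12 to 29) and their median fold enrichment 4.94 (range 3.92 to 6.21). The 2100 other peaks within 1 kb of a protein-coding gene end had medians of 17.0 fragments and 4.87-fold, and their fold enrichment reached 19.9. The interquartile range of those pileups ran from 13.0 to 22.0 fragments. For a peak of 19 fragments the Poisson interval alone runs from 11.4 to 29.7, so the pileups of most of the 14 peaks cannot be ranked beyond counting error. The interval of UBE2C (19.4 to 41.6) still overlapped that of MAD2L1 and NCAPH (6.20 to 21.0).

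**Figure D5:**
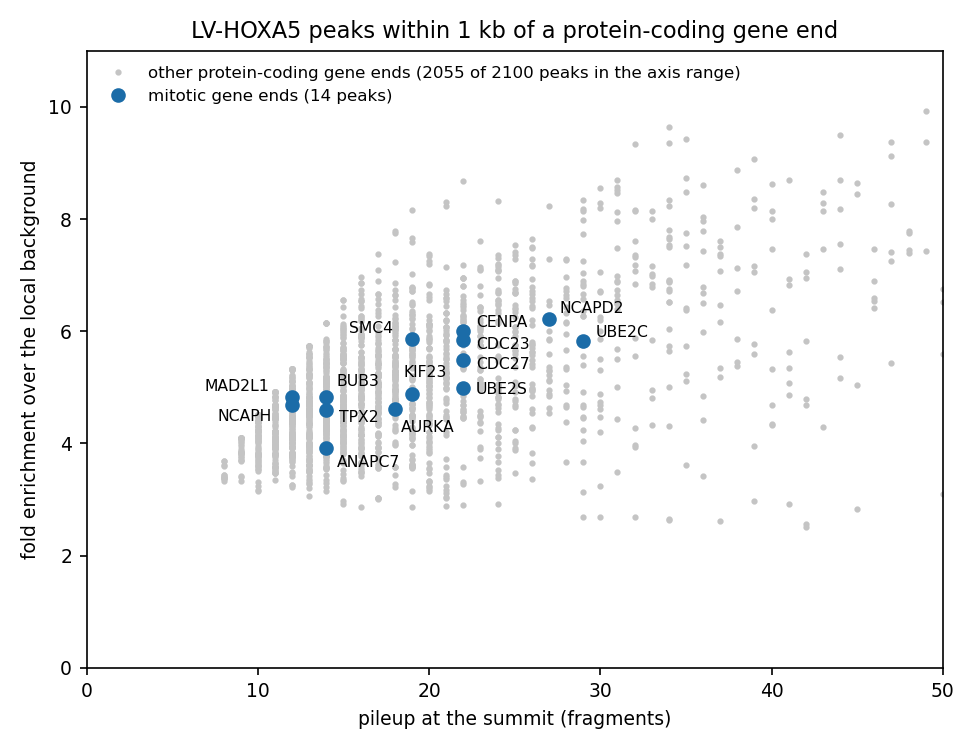
Fold enrichment over the local background against pileup at the summit, in fragments, for LV-HOXA5 peaks within 1 kb of a protein-coding gene end; blue points are the 14 peaks at mitotic genes and grey points are 2055 of the 2100 other peaks, those within the axis limits. The mitotic peaks lie between 12 and 29 fragments and between 3.92-fold and 6.21-fold, inside the cloud of the others.

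Several peaks could belong to a neighbouring gene as well. In 8 of the 14, an end of another gene lay within 1 kb of the same peak (48.2% of the 2100 other peaks), and in 5 that gene was protein-coding (24.2% of the others). The peak at AURKA covered an end of CSTF1, a gene of mRNA 3′ processing, and that at CDC27 an end of MYL4, a myosin light chain. The SMC4 peak lay 2 bp from IFT80, an intraflagellar transport gene, the NCAPD2 peak 75 bp from MRPL51, a mitochondrial ribosomal gene, and the UBE2C peak 868 bp from DNTTIP1. At MAD2L1, UBE2S and KIF23 the neighbours were the non-coding genes MAD2L1-DT, LOC105372462 and KIF23-AS1. A peak at such an end cannot be given to either gene of the pair from its position alone.

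A separate list of 72 further mitotic genes, also chosen with earlier results of these data known, was counted in the same way without a test. Its genes come from the same complexes and from related ones such as cohesin, and are also among the other protein-coding genes. Of the 72, 26 (36.1%, interval 25.1% to 48.3%) showed an LV-HOXA5 peak at most 1 kb from a gene end and 29 (40.3%, interval 28.9% to 52.5%) within 3 kb or inside, against 13.0% and 20.7% of the other protein-coding genes. None had an LV-HOXA5-NC peak in either class. The strongest by fold enrichment was at ANAPC15, an APC/C subunit that helps to turn the checkpoint off, with 56 fragments (interval 42.3 to 72.7) and 9.45-fold (chr11:72112231-72112868). Next came KNTC1, which acts in the checkpoint at kinetochores, with 26 fragments and 7.19-fold, and SKA2, of a complex that holds microtubules, with 34 fragments and 6.75-fold. KIF18A, a kinesin that dampens chromosome movement, had 22 fragments and 6.46-fold, and CENPO, an inner kinetochore gene, had 24 fragments and 6.38-fold. These 5 exceeded the highest fold enrichment among the 47 genes. The other 21 with a peak within 1 kb were HMMR, MIS12, ECT2, CKAP5, KIFC1, CENPL, CENPN, KIF20A, CKAP2, FBXO5, ANLN, CENPQ, KIF20B, CCNB2, SMC3, ZWILCH, ASPM, NEK2, CENPK, STAG1 and CDK1. RACGAP1, NSL1 and NCAPG2 had peaks only inside the gene, 7799, 31402 and 36671 bp from the closer end. Of the 26 genes with a peak within 1 kb, 24 had a strand, and in all 24 that peak lay at the gene start.

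Some member genes have pseudogenes, and how alike their sequences are was not measured here. The gene table lists 11 pseudogenes of CDC27 and 6 of ANAPC1, of which 3 and 1 had an LV-HOXA5 peak within 3 kb or inside. It also lists 2 of AURKA and 1 of NCAPD2, and 1 of each had such a peak. The pseudogenes of all other members that have any, such as the 5 of UBE2C, had none. In the same class, 20.7% of the other protein-coding genes had a peak, and the share over all pseudogenes was not computed. The peak given above for CDC27 lies at the start of the gene itself, and how fragments that match several places were treated is not given in the sources used here.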

How the data were processed

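Anti-Flag CUT & Tag was analysed in 1 LV-HOXA5 and 1 LV-HOXA5-NC library of TFK-1 cells, grouped by the sample labels. Duplicates were removed by the authors, who ran MACS 2.2.7.1 on each library by itself (paired-end mode, q-value 0.05, effective genome size 2.7e+09 bp, no control library). The submitters' processing notes name fastp, Bowtie2, deepTools, MACS2, ChIPseeker and GRCh38. The deposited tables give, per peak, the pileup signal (fragments over the summit, not scaled for depth), the fold enrichment (a ratio to the library's own local background) and both p-value and q-value as −log10. A second deposited form of each list carries a whole-number score derived from the q-value; it served only to compare the 2 forms, which held identical peaks. The minimum peak length was 246 bp for LV-HOXA5 and, in the control list, 283 bp.

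Distances run between the closer peak edge and the outer ends of genes in a RefSeq table of GRCh38.p14, matched by symbol. Strand came from the RefSeq promoter table, which held 40 of the 47 genes and 15843 protein-coding genes, and 1 promoter per gene was used, that nearest the outer start. Shares have exact binomial (Clopper-Pearson) and pileups exact Poisson 95% intervals, which cover counting error only. With 1 library per condition, and with the members and lists chosen with earlier results of these data known, no test was made. Values were given for every member with a peak, the 5 further mitotic genes of highest fold enrichment, and promoters of up to 8 members whose peak overlapped the window. Gene assignment was tested on simulated data with 200 planted peaks. All 200 were handled correctly: given to their gene at the planted distance, or left out if planted beyond 3 kb. Computations used Python 3.11.15, NumPy 2.4.6, pandas 2.3.3, SciPy 1.17.1 and Matplotlib 3.10.9.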

Additional observations from a re-analysis of the deposited data

How the results depend on the processing

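Of 59 comparisons with an alternative setting, 50 left the value within the 95% counting interval of the main one. Part of these could not have moved, so the count is no measure of robustness. The control list had no peak at a member to lose. Leaving out LV-HOXA5 peaks that overlap a control peak removed none at the 47 members or the 72 further mitotic genes. The share of mitotic genes with an LV-HOXA5 peak stayed within its interval under every setting that was run, from 21.3% to 31.9% within 1 kb and from 21.3% to 34.0% within 3 kb or inside. The control list gave 0 members under the settings run on it, which were the stricter q-value, the fold limit, the summit in place of the edge and the gene start only. Among the other protein-coding genes, whose interval is narrow, the share within 1 kb was 11.3% with a q-value of 0.001 or less, 6.91% when only peaks of at least the list's median fold were kept, 11.9% and 14.1% with limits of 500 bp and 2 kb, and 14.1% with any RefSeq start (chosen after seeing the data). Their share within 3 kb or inside was 17.9% with the stricter q-value and 11.2% with the fold limit. With the fold limit, the further mitotic genes had 25% and 26.4%. The settings that keep fewer peaks lower shares by construction. No paired analysis was possible because each condition had 1 library and no result comes from a test. Depth limits the control list, since no member peak scaled to its depth reached its lowest pileup.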
